A study of Mus musculus with 8 samples.

Results

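Laminins, nidogens and the heparan sulphate proteoglycans perlecan and agrin were examined in young gonadal white fat, with the 10 genes Lama2, Lama4, Lama5, Lamb1, Lamb2, Lamc1, Nid1, Nid2, Hspg2 and Agrn. They were chosen by name, with earlier results of these data known. Every gene probe of the array whose RefSeq transcript belonged to one of them was taken, which gave 15 of 55681 gene probes. The fat came from 4 Rap1-/- mice and 4 wild-type (WT) mice, all 10 weeks old, female per the study's methods, and on a C57BL6/129SV background of 90% and 10%. Terf2ip encodes RAP1, a shelterin protein of the telomeres that also has binding sites elsewhere on the chromosomes. The knockout was a whole-body deletion made with a Cre expressed in the early embryo and then bred out, so it was not limited to fat cells. Each mouse gave 1 array, labelled with Cy3, and an array carries the replicate number of its label here (Rap1-/- 1 to 4 and WT 1 to 4). The arrays lay on 2 slides, with replicates 1 and 2 of both genotypes on slide 1 and replicates 3 and 4 on slide 2.

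The basement membrane is a thin sheet of matrix on which epithelial and endothelial cells rest and which wraps each adipocyte, muscle fibre and Schwann cell. Laminins are cross-shaped trimers of 1 alpha, 1 beta and 1 gamma chain that polymerise on the cell surface, where integrins and dystroglycan hold them. Nidogens and perlecan tie the laminin sheet to the collagen IV network, and agrin binds both laminin and dystroglycan. In fat, the sheet around the adipocyte contains the alpha4 chain, vessel walls contain alpha4 and alpha5, and the alpha2 chain is best known from muscle and peripheral nerve.

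The promoters of these genes are of interest because of the sites that the paper describes for RAP1. At telomeres it binds the repeats by way of another protein, TRF2. Along the chromosome arms its sites favour the tandem form of the repeat, not the single one. A reference promoter set (GRCm38.p6) gave windows of 300 bases, from 250 before to 50 after a transcription start. It covered 7 of the 10 genes, with 8 windows in all since Agrn has a pair of starts there. Lama4, Lamc1 and Nid2 had no entry in this set. The telomere repeat TTAGGG, searched on both strands, was found in 1 of the 8 windows, that of Hspg2, at position -223 from the start, and in 10.6% of all 32851 promoters of the same length. Its tandem form TTAGGGTTAGGG, which holds the shorter motif 2 times, was found in 0 of the 8 windows and in 0.0122% of all promoters. The GC box GGGCGG, a frequent element of promoters without a TATA box, was found in 7 of the 8 windows and in 35.7% of all promoters. The windows were rich in G and C, with a median of 64.2% against 52.7% over all promoters, and TATAAA was found in 0 of the 8 against 13.6%. CCAAT was found in those of Lamb1 and Nid1 only, against 37.4% of all promoters. A match is a run of letters and not a shown binding site. The windows below are printed to show the single telomere repeat (Hspg2) and a window with less G and C beside one with more (Lama2 and Nid1).

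The Hspg2 window lies at chr4:137468553-137468852 on the plus strand, and the capitals mark TTAGGG.
Hspg2: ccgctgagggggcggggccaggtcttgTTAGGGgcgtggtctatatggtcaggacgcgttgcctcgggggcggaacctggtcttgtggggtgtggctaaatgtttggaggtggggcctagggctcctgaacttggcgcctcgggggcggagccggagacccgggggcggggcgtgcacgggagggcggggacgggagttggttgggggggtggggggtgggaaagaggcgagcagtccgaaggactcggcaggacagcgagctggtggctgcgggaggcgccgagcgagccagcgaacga
The Lama2 window lies at chr10:27616893-27617192 on the minus strand and the Nid1 window at chr13:13437352-13437651 on the plus strand, and the capitals mark GGGCGG.
Lama2: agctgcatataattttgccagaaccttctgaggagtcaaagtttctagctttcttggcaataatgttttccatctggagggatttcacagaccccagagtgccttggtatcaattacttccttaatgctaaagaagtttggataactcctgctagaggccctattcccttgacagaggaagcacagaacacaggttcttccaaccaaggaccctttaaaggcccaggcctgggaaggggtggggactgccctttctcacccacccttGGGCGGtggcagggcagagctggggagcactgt
Nid1: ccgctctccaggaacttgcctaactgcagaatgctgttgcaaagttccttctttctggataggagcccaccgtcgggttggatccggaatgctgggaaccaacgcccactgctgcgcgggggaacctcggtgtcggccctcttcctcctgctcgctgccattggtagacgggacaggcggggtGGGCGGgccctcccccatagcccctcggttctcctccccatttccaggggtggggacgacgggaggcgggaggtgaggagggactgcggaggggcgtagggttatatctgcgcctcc
The Lama2 window was 50.3% G and C with its GC box at position 17 from the start, and the Nid1 window was 64.7% G and C with its GC box at position -67.

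The deleted gene was checked on its 2 probes. Probe A_52_P381806 of Terf2ip had -7.58, -7.43, -7.13 and -7.58 log2 units on the Rap1-/- arrays, where it was not well above background on any array, and 0.06, 0.26, 0.49 and 0.23 on the WT arrays, a level at least 49.9-fold lower in Rap1-/- fat (limma adjusted p = 1.90e-07 over all probes). Values here and throughout are log2 processed signal minus the 75th percentile of the same array, and the at-least fold sets the WT mean against a floor for the Rap1-/- arrays, taken on each array as its lowest signal well above background. Probe A_55_P2094079, by contrast, had 1.01, 0.84, 0.98 and 1.06 on the Rap1-/- arrays and -1.49, -1.39, -1.27 and -1.48 on the WT arrays, a difference of 2.38 (limma adjusted p = 6.63e-05). The files give no probe positions, so it is not known which of the probes lies inside the deleted part, and the 2 probes moved in opposite directions. The 75th percentile itself ranged from 302 to 497 intensity units, lowest on WT 3, and 59.7% to 65.2% of spots were well above background. Of 25064 genes and unnamed features tested, Terf2ip alone passed the adjusted threshold of 0.05 with limma (0.00399%), 4.98% had an unadjusted p under 0.05, and 3.26% had no overlap between the genotypes. The 8 adipocyte markers were well above background on every array, as were all 15 probes of the basement membrane genes, and of the 6 epithelial markers Cldn4 and Esrp1 were so on 8 arrays, Cldn3 on 4, Epcam on 1, and Cdh1 and Elf3 on 0. The number of arrays limits the precision of all values. The p-values set the genotype difference against the spread between arrays, each of 1 mouse, which also holds differences between slides. In bulk tissue fewer cells of a type and less RNA per cell cannot be told apart.

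For the 10 genes as a group, no genotype difference was resolved: 0 of 10 passed the adjusted threshold (background 0.00399%), 0 of 10 had an unadjusted p under 0.05 (background 4.98%), and the genotypes overlapped in all 10 (background of genes without overlap 3.26%). The differences, Rap1-/- minus WT, ran from -0.09 for Lama5 to 0.20 for Nid1, so every estimate was under 1.2-fold in either direction. Of the 10, 8 were positive and 2, Lama5 and Lamb1, were negative, with a median of 0.11; over all genes the median was -0.04 and 40.1% were positive. Scaled to the E1A spike-in controls in place of the 75th percentile, all 10 were positive with a median of 0.35. The median of all genes was then 0.20. This scaling shifts all genes alike, so the gap of 0.15 between the medians could not change. Every 95% interval included 0. The lowest bound was -0.37 for Lamb1, a level 1.29-fold lower in Rap1-/- fat, and the highest was 0.63 for Nid2, a level 1.54-fold higher. Each gene had its own interval, the narrowest being -0.16 to 0.22 for Hspg2. The smallest difference detectable with 4 arrays of each genotype was not tested. Taken by probe, 0 of the 15 passed the adjusted threshold (background 0.00589%), 0 had an unadjusted p under 0.05 (4.83%) and 0 were without overlap (3.16%). The plot of each gene by array shows how far the genotypes overlapped.

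**Figure D1:**
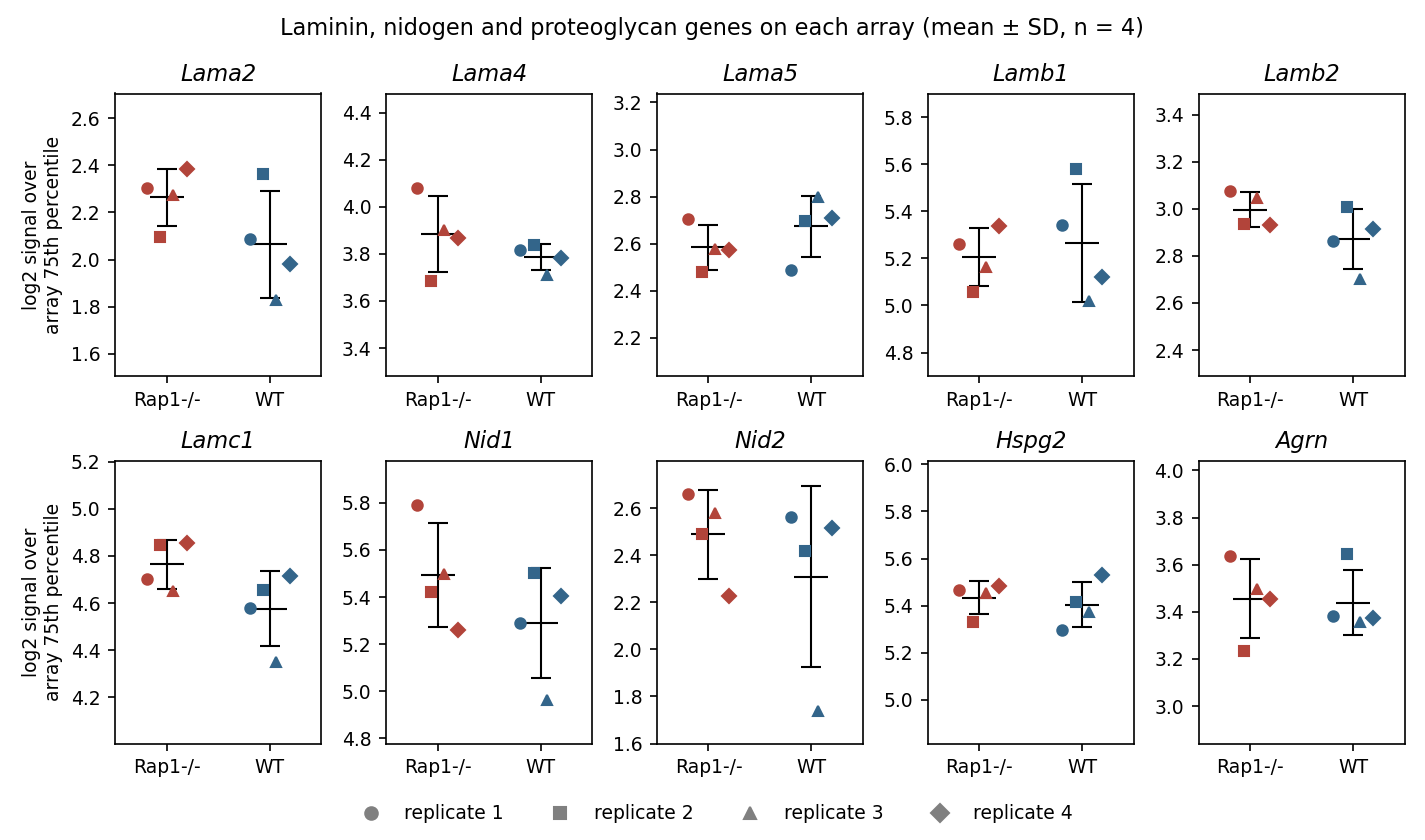
Log2 signal over the 75th percentile of the array for each of the 10 genes (brightest probe), with 1 point for each mouse, Rap1-/- to the left of WT, and the mean ± SD (n = 4 each); each panel spans 1.2 log2 units. The genotypes overlap in all 10 panels, and the WT 3 triangle is the lowest point in 6 of them.

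The laminin alpha chains decide which receptor a laminin binds. Lama2, the alpha2 chain whose loss causes a congenital muscular dystrophy in mice, had 2.30, 2.10, 2.27 and 2.38 log2 units on the Rap1-/- arrays, against 2.09, 2.36, 1.83 and 1.98 on the WT arrays. All 4 Rap1-/- arrays lay above all WT arrays but WT 2, which was nearly level with the highest Rap1-/- array. The Rap1-/- mean was 2.27 ± 0.12 and the WT mean 2.06 ± 0.23 (SD, n = 4 each), a difference of 0.20 with a standard error of 0.13 (limma adjusted p = 0.878). Its second probe, A_55_P2064328, gave 0.13 (95% interval -0.21 to 0.48). The Lama2 difference was seen on 1 slide only: it was -0.02 between the 2 Rap1-/- and 2 WT arrays of slide 1 and 0.43 between those of slide 2, and the second probe gave -0.12 and 0.38.

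Lama4, the chain of the adipocyte and endothelial sheet, had 4.08, 3.68, 3.90 and 3.87 in Rap1-/- fat, against 3.81, 3.84, 3.71 and 3.78 in WT fat. The Rap1-/- arrays spread more widely than the WT arrays, with both the highest and the lowest value among them. The difference was 0.10 ± 0.10 (standard error, limma adjusted p = 0.901). Lama5, the chain of mature vessel walls and many epithelia, had 2.71, 2.48, 2.58 and 2.57 in Rap1-/- fat, against 2.49, 2.70, 2.80 and 2.71 in WT fat. WT 2, WT 3 and WT 4 lay above Rap1-/- 2, 3 and 4. WT 3 also lay above Rap1-/- 1, and WT 4 was nearly level with it. The difference of -0.09 (95% interval -0.31 to 0.13, limma adjusted p = 0.904) was the most negative of the 10. It came from slide 2, where it was -0.18, against -0.001 on slide 1.

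Beta and gamma chains are shared among laminins, and nearly all laminins of the body contain the gamma1 chain. Lamb1, the beta chain of the commonest laminins, had 5.26, 5.06, 5.16 and 5.34 in Rap1-/- fat, against 5.34, 5.58, 5.02 and 5.12 in WT fat. The slides differed in direction: on slide 1 both WT arrays lay above both Rap1-/- arrays (-0.30), and on slide 2 both Rap1-/- arrays lay above both WT arrays (0.18). The 8 arrays together gave -0.06 ± 0.14 (standard error, limma adjusted p = 0.958). Lamb2, the beta chain of the neuromuscular synapse and of vascular and kidney basement membranes, had 3.08, 2.93, 3.04 and 2.93 in Rap1-/- fat, against 2.86, 3.01, 2.70 and 2.91 in WT fat. All 4 Rap1-/- arrays lay above 3 of the WT arrays and WT 2 lay among them, with a difference of 0.13 (95% interval -0.08 to 0.34, limma adjusted p = 0.878).

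Lamc1, the gamma1 chain, had the smallest p of the 10. Its values were 4.70, 4.85, 4.65 and 4.85 in Rap1-/- fat, against 4.58, 4.66, 4.35 and 4.72 in WT fat. All 4 Rap1-/- arrays were above the WT mean, and WT 2 and WT 4 lay among the Rap1-/- arrays. The Rap1-/- mean was 4.76 ± 0.10 and the WT mean 4.58 ± 0.16 (SD, n = 4 each), and the difference of 0.19 had a 95% interval of -0.05 to 0.43 (limma adjusted p = 0.874, unadjusted p = 0.109). Both slides gave a positive value, 0.16 and 0.22.

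Nidogens are the linkers that bind the laminin gamma1 chain and collagen IV. Nid1 had 5.79, 5.42, 5.50 and 5.26 in Rap1-/- fat, against 5.29, 5.50, 4.96 and 5.40 in WT fat. The highest value was that of Rap1-/- 1 and the lowest that of WT 3, and the other 6 arrays of both genotypes were mixed between them. The difference of 0.20 ± 0.15 (standard error, limma adjusted p = 0.881) was the largest of the 10, and both slides gave a value near it, 0.21 and 0.19. On its second probe, A_55_P2115713, Nid1 had 0.16, -0.28, -0.08 and -0.19 on the Rap1-/- arrays, against -0.43, -0.24, -0.84 and -0.17 on the WT arrays. That was the largest difference of the 15 probes, 0.33 or 1.26-fold, with a 95% interval of -0.05 to 0.71 (limma adjusted p = 0.897 over all probes), and again Rap1-/- 1 was highest and WT 3 lowest. The third probe of Nid1, A_55_P2084303, gave 0.08 with an interval of -0.23 to 0.39.

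Nid2, the second nidogen, was the least precisely measured of the 10, because of 1 array. It had 2.66, 2.49, 2.58 and 2.23 in Rap1-/- fat, against 2.56, 2.42, 1.74 and 2.51 in WT fat. WT 3 lay well below the other 7 arrays, which ran from 2.23 to 2.66. The difference was 0.18 with a standard error of 0.19 (limma adjusted p = 0.905), and it was -0.01 when WT 3 was left out.

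The proteoglycans differed least. Hspg2, which encodes perlecan, had 5.47, 5.33, 5.45 and 5.48 in Rap1-/- fat, against 5.30, 5.41, 5.37 and 5.53 in WT fat. All 8 arrays lay within a narrow band with the genotypes mixed, and the difference of 0.03 had the narrowest interval of the 10 genes, -0.16 to 0.22 (limma adjusted p = 0.968). Its second probe, A_55_P1959648, gave 0.16 (95% interval -0.16 to 0.47). Agrn, which encodes agrin, the organiser of acetylcholine receptors at the neuromuscular synapse, had 3.64, 3.23, 3.50 and 3.46 in Rap1-/- fat, against 3.38, 3.65, 3.36 and 3.37 in WT fat. The highest arrays were WT 2 and Rap1-/- 1, nearly level, and the lowest was Rap1-/- 2. The difference was 0.02 ± 0.11 (standard error, limma adjusted p = 0.991), and a second, dim probe, A_55_P2009127, gave -0.14 (95% interval -0.53 to 0.24). Agrn was thus the only one of the 4 genes with several probes whose probes differed in sign.

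**Figure D2:**
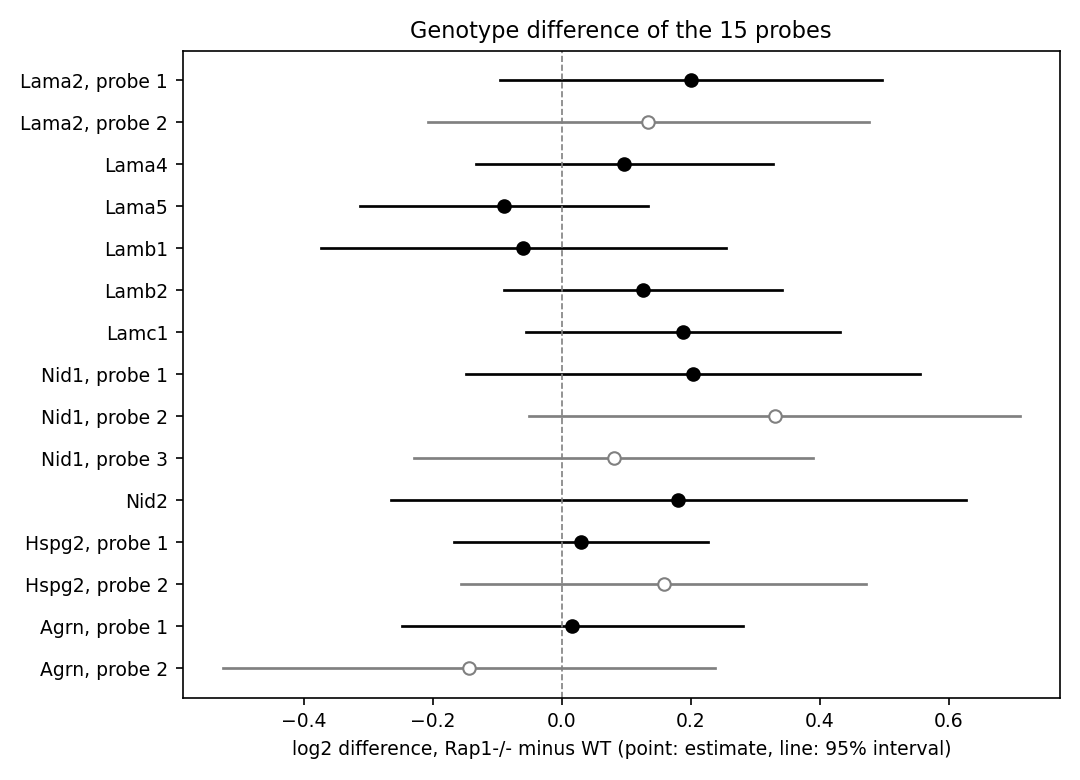
Log2 difference, Rap1-/- minus WT, of the 15 probes with its 95% interval from the limma fit over all probes; filled points are the brightest probe of each gene, open points its other probes. All 15 intervals cross 0, 12 estimates are positive and 3 are negative.

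The same arrays stood high or low for several of the genes. Each gene was centred on its mean over the 8 arrays, and the mean over the 10 genes was 0.16, -0.05, 0.05 and 0.03 on the Rap1-/- arrays, against -0.04, 0.10, -0.23 and -0.01 on the WT arrays. Rap1-/- 1 was thus the highest array, WT 2 the next and WT 3 the lowest, and the remaining 5 lay close to 0. WT 3 was the lowest of the 8 arrays for 6 of the 10 genes (Lama2, Lamb1, Lamb2, Lamc1, Nid1 and Nid2), while over all genes it was the lowest for 14.9% and the highest for 24.0%. Lama5 departed from this, with its highest value on WT 3, and Hspg2 and Agrn lay close to their mean there, at -0.04 and -0.09. Rap1-/- 1 was the highest array for 4 genes, Lama4, Lamb2, Nid1 and Nid2, against 14.8% of all genes. The WT standard deviation was the larger of the pair for 8 of the 10 genes, against 57.4% of all genes, and without WT 3 for 4 of the 10, against 49.3%. Leaving out WT 3 took the median difference to 0.04, with 6 genes positive and 4 negative, and leaving out Rap1-/- 1 took it to 0.07, with 7 and 3.

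**Figure D3:**
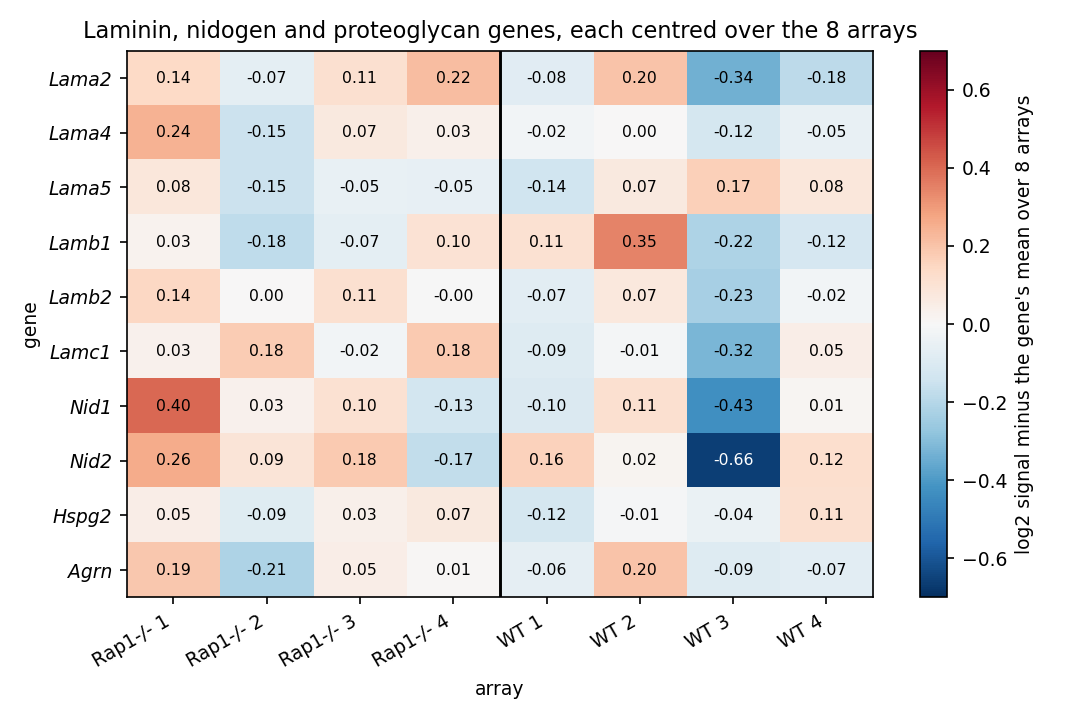
Log2 signal of the 10 genes minus each gene's mean over the 8 arrays, Rap1-/- arrays left of the line and WT arrays right of it; red is above and blue below the gene's mean. The WT 3 column is blue in 9 of 10 rows, down to -0.66 for Nid2, and the Rap1-/- 1 column is red in all 10, up to 0.40 for Nid1.

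Marker genes of other cells also varied between arrays. The 7 mesothelial markers, of the cell layer that covers gonadal fat, were all positive, with a median difference of 0.64 and 0 past the threshold. Their summed level, in multiples of the 75th percentile, ran from 36.5 to 44.2 on the Rap1-/- arrays and from 15.9 to 41.6 on the WT arrays, with WT 3 the lowest. The 8 fibroblast and preadipocyte markers, from cells that make much of the matrix of fat, had 7 positive differences and a median of 0.26, again with 0 past the threshold; their sum ran from 585.1 to 632.8 on the Rap1-/- arrays and from 434.6, on WT 3, to 662.7, on WT 2, on the WT arrays. On Rap1-/- 1, the highest array for the 10 genes, the mesothelial sum was 40.3 and the fibroblast sum 585.1, neither of them the highest. Endothelial and macrophage markers did have their highest sums on Rap1-/- 1 (146.5 and 77.6) and the next on WT 2 (137.8 and 67.6). On WT 3 their sums were 136.9 and 65.2. Their centred means were likewise highest on Rap1-/- 1 (0.26 and 0.31) and next on WT 2 (0.20 and 0.15). On WT 3 the centred means were 0.13 and -0.11, so macrophage markers stood low there by the centred mean and not by the sum. The part of these cells in the values of the 10 genes was not tested.

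Markers of adipocytes and of the other cell types examined stood as follows. The 8 adipocyte markers had 1 positive and 7 negative differences with a median of -0.18. Scaled to the E1A spike-in controls, which shifts all genes alike, the median was 0.05 with 5 positive. With quantile normalisation the median was -0.009 and in the deposited table -0.015, each with 3 positive and 5 negative. The sum of the adipocyte markers was 2528.9 to 2794.1 in Rap1-/- fat and 2730.1 to 3384.6 in WT fat. Endothelial markers had 1 positive and 7 negative differences with a median of -0.05, mural markers 4 and 3 with 0.05, Schwann cell markers 4 and 2 with 0.05, macrophage markers 4 and 1 with 0.15, lymphocyte markers 4 and 2 with 0.07, and the 3 epithelial markers that were tested 1 and 2 with -0.16. No marker of any of these lists passed the threshold. Skeletal muscle markers varied most, with 0 positive and 8 negative differences, a median of -1.65, 0 past the threshold, and sums of 9.43, 961.0, 397.2 and 5.34 on the Rap1-/- arrays and 418.2, 104.0, 51.2 and 380.5 on the WT arrays. Lama2, a chain abundant in muscle, was highest on Rap1-/- 4, where the muscle sum was 5.34, and lowest on WT 3, where it was 51.2, and the part of muscle in its values was not tested.

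**Figure D4:**
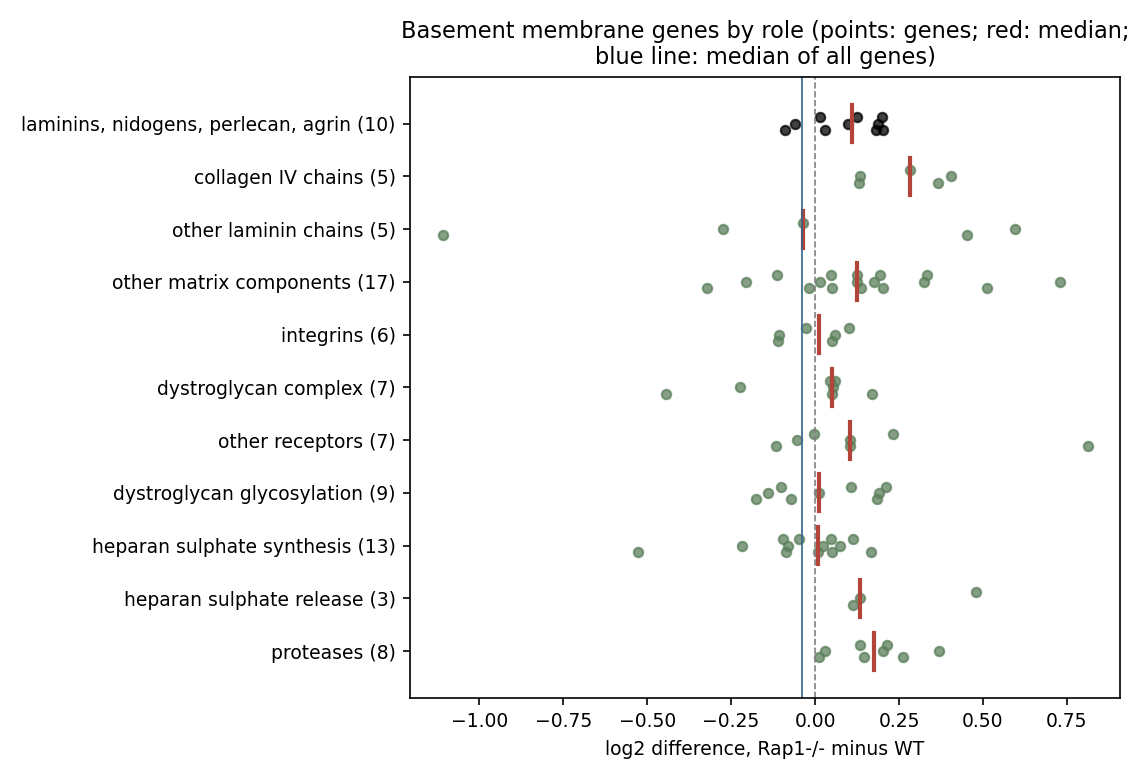
Log2 difference, Rap1-/- minus WT, of every tested gene of the basement membrane lists, with the number tested in brackets; points are genes, red bars medians, the dashed line 0 and the blue line the median of all genes. The 10 laminin, nidogen and proteoglycan genes lie between -0.09 and 0.20, all 5 collagen IV chains are to the right of 0, and the other laminin chains span -1.11 to 0.60.

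Of 31 other components of the basement membrane, 27 were bright enough to test and 0 passed the threshold; 20 were positive and 7 negative, with a median of 0.13. Of the 27, 3 had an unadjusted p under 0.05 (background 4.98%) and 0 were without overlap (background 3.26%). Lama1, the alpha chain of the early embryo, had -4.24, -3.38, -3.17 and -2.08 on the Rap1-/- arrays, against -2.05, -2.19, -1.73 and -2.46 on the WT arrays. It was far below the 75th percentile on every array, and 3 Rap1-/- arrays lay below all WT arrays, with a difference of -1.11 ± 0.41 (standard error, limma adjusted p = 0.874) that was -0.58 with normexp background correction, -0.48 in the deposited table, and -1.69 within slide 1 against -0.53 within slide 2. Lamb3, the beta3 chain of epithelial laminin, had a difference of 0.60 (limma adjusted p = 0.874), which was 0.29 with normexp.

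Collagen IV forms the second network of the basement membrane. Col4a1, of the common trimer with Col4a2, had 4.48, 4.01, 4.04 and 4.71 in Rap1-/- fat, against 3.91, 4.28, 3.85 and 4.08 in WT fat. Rap1-/- 1 and 4 stood above all WT arrays and Rap1-/- 2 and 3 among them, with a difference of 0.28 ± 0.18 (standard error, limma adjusted p = 0.878). Col4a2 followed the same order of Rap1-/- arrays, 4.69, 4.23, 4.45 and 4.88, against 4.34, 4.60, 4.30 and 4.49 in WT fat (0.13, limma adjusted p = 0.905). The differences of Col4a4, Col4a5 and Col4a6, chains of specialised membranes, were 0.13, 0.40 and 0.37, none past the threshold. Slide 2 gave the larger part of them: Col4a5 was 0.03 within slide 1 and 0.78 within slide 2, Col4a6 0.09 and 0.64, Col4a4 0.06 and 0.21, Col4a1 0.15 and 0.41, and Col4a2 -0.01 and 0.27. Col4a4 was 0.03 with normexp, and Col4a3 was not tested, being well above background on 1 array.

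Among the receptors, 20 of 22 genes were tested, 12 positive and 8 negative with a median of 0.05, and 0 passed the threshold. A single receptor gene was without overlap, 5% of the 20 against a background of 3.26% of all genes. It was Sntb1, the beta1-syntrophin that sits on the cytoplasmic side of the dystroglycan complex. Sntb1 had -1.38, -1.22, -1.09 and -1.10 in Rap1-/- fat, against -0.65, -0.89, -0.49 and -0.99 in WT fat. The highest Rap1-/- array was still below the lowest WT array, with a difference of -0.45 ± 0.13 (standard error, limma adjusted p = 0.874), which was -0.21 with overlap when the arrays were scaled to E1A. Utrn, encoding utrophin of the same complex, had a difference of -0.22 that was 0.01 with the E1A scaling, -0.04 within slide 1 and -0.41 within slide 2, and Sgce, encoding epsilon-sarcoglycan, one of 0.17. For Sdc4, encoding the heparan sulphate carrier syndecan 4, the difference of 0.81 rested on 1 array: WT 3 had -1.32, well below the other WT arrays (up to 1.70) and all Rap1-/- arrays (1.59 to 1.87). The 6 integrin chains tested lay between -0.11 and 0.10.

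All 33 enzymes that make the sugar chains of these proteins, release them or cut the matrix were tested, with 23 positive, 10 negative, a median of 0.05 and 0 past the threshold. Xylt1, which starts the glycan chains of perlecan and agrin, had the smallest p of the list, with -4.14, -4.19, -3.69 and -3.69 in Rap1-/- fat, against -3.21, -3.27, -3.31 and -3.82 in WT fat. It was dim on every array, and WT 4 alone lay among the Rap1-/- arrays (-0.53 ± 0.18, standard error, limma adjusted p = 0.874). The Xylt1 difference was -0.93 within slide 1 and -0.13 within slide 2, and it was -0.30 with normexp, -0.29 with E1A scaling and -0.16 in the deposited table. All 8 proteases were positive, between 0.01 and 0.37. Htra1, a secreted protease, had 6.28, 6.17, 6.06 and 6.39 in Rap1-/- fat, against 5.82, 6.03, 5.98 and 6.02 in WT fat, without overlap and with a difference of 0.26 (limma adjusted p = 0.874).

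Of the 33 enzymes, 5 were without overlap, against a background of 3.26% of all genes, but few of these held on another scale. Besides Htra1 they included Hs2st1, an enzyme that sulphates heparan sulphate, at -0.22, and B4gat1 and Rxylt1, which act on the dystroglycan glycan that laminin binds and are named because their values were seen. B4gat1 had 2.72, 2.52, 2.58 and 2.54 in Rap1-/- fat, against 2.38, 2.44, 2.29 and 2.51 in WT fat. The lowest Rap1-/- array was just above WT 4, and the difference was 0.18 (limma adjusted p = 0.874); Rxylt1 gave 0.21, with the same adjusted p, and was 0.08 with normexp, 0.05 within slide 1 and 0.37 within slide 2. The median of the 9 enzymes of this glycan was 0.01. Over 5 other scalings or background corrections, Rxylt1 and Htra1 kept the separation in 1 each, B4gat1 in 2 and Hs2st1 in 0, and Hs2st1 was 0.02 with the E1A scaling.

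The genes whose pattern over the 8 arrays lay nearest the mean of the 10 were Lamp2, Rpl15, Ythdf3, Ltn1 and Mgrn1, with root mean square differences of 0.029 to 0.038 log2 units, and among the 10 genes themselves Lamb2 came nearest to it, at 0.034. Lama4 and Agrn were the most alike pair among the 10 (0.079), and Lama5 and Hspg2 were nearest to each other (0.099). Nid2 had Nid1 as its nearest neighbour, at 0.146. These likenesses describe 8 arrays of which 2 stand apart, and they carry no test.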

How the data were processed

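Total RNA was extracted by the authors with Trizol and a Qiagen kit (RNA integrity numbers 6.5 to 8.5), labelled with Cy3 and hybridised to one-colour Agilent arrays of 62976 spots. The deposited scanner files hold linear intensity values per spot (processed signal, median signal, background) and flags, written per the file headers by Feature Extraction 10.7.3.1, another version than the methods name, on a design built on mm9. A value table in log2 units was also deposited; its upstream steps were not stated beyond limma, and recomputing it as normexp (offset 50) with quantile normalisation matched it.

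Processed signals were put on the log2 scale, each array's 75th percentile was subtracted, and repeat spots were averaged, leaving out those marked as outliers, which left 13 probes with an empty array. A probe was kept (33982 in all) if 4 or more arrays had it well above background. Names came from RefSeq accessions (46.8% of probes named), and the brightest kept probe stood for a gene; 25064 genes or unnamed features were tested with limma 3.58.1 (lmFit, eBayes) in R 4.3.3, without covariates, with Benjamini-Hochberg adjustment and a threshold of 0.05, and each probe also by itself. The method was tested on simulated data. Members and lists were chosen with earlier results of these data known. Named were the 10 genes and their probes, Terf2ip, up to 4 genes per related list by p, collagen IV chains, marker lists by count and median (with defining markers at or near background), and the nearest genes by root mean square difference of centred values; B4gat1 and Rxylt1 were added after their values were seen, and 2 genes that the rule also named are not reported here. Alternatives covered background correction (normexp, on the median spot signal in place of the planned mean signal), scaling, the deposited table, the filter, the choice of probe, slide, replicate number, variance model and each array left out. Each slide held 2 arrays of each genotype, WT at positions 1 and 2 and Rap1-/- at 3 and 4, so position and genotype cannot be told apart. Figures were drawn with matplotlib 3.10.9.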

Additional observations from a re-analysis of the deposited data

Results flagged for a closer look

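In Agrn, 1 WT array lay apart from a tight group of the others. On its brighter probe, the 4 Rap1-/- arrays ran from 3.23 to 3.64. Among the WT arrays, WT 2 had 3.65 log2 units and the others lay between 3.36 and 3.38, a gap of 0.901 of the whole range of the group, where 0.829 is the 95% critical value for 4 arrays. In all, 30 groups of 4 arrays were examined over the 15 probes and 1 was past the critical value, while chance gives about 1 in 20. Without WT 2 the Agrn difference, Rap1-/- minus WT, was 0.085, and it was 0.02 with all arrays.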

How the results depend on the processing

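Under all 21 alternatives, 0 of the 10 genes passed the adjusted threshold (smallest adjusted p 0.534, for Lama2 without WT 2), and Lama4, Lamb2, Lamc1 and Nid1 kept a positive difference. The number of genes called, 1, was 2 with normexp, with the deposited table and with the trended robust variance, and 0 within slide 1 and within slide 2, where 1134 and 882 had an unadjusted p under 0.05; of probes, 2 were called, against 1 and 0 within the slides (unadjusted 1503 and 1235). Terf2ip was 2.37 within slide 1 (adjusted p = 0.991) and 2.40 within slide 2 (0.663), with 2 arrays a genotype, and -2.65 as the mean of its probes, which run opposite ways. With E1A scaling the medians were 0.35 for the 10 genes, 0.37 for other components, 0.29 for receptors and 0.29 for enzymes, as the median of all genes was 0.20. Signs turned for Lamb1 with quantile normalisation (0.0085), median scaling (0.00017), E1A scaling (0.18) and within slide 2 (0.18), for Lama5 (0.15) and Agrn probe 2 (0.093) with E1A scaling, for Agrn as the mean of its probes (-0.064), for Agrn (-0.080), Lama2 (-0.025) and Lama2 probe 2 (-0.12) within slide 1, and for Nid1 probe 3 with normexp (-0.0019). Apart from the E1A scaling and the median scaling, each of which shifts all genes alike, the cause was not tested. Leaving out each array gave -0.14 to 0.045 for Lamb1, -0.044 to 0.090 for Agrn, -0.0055 to 0.072 for Hspg2, -0.0088 to 0.27 for Nid2, -0.0078 to 0.19 for Nid1 probe 3, 0.04 to 0.15 for the median of the 10 genes, and -0.0070 (without WT 3) to 0.14 (without WT 2) for the median of the enzymes; the receptors' median was -0.0018 without Rap1-/- 1. Within slide 1 the median of the 10 genes was 0.05, and within slide 2 it was 0.18.

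Same-numbered arrays of the 2 genotypes deviated in opposite directions (correlations across genes of -0.22, -0.13, -0.13 and -0.16). The numbers were therefore not taken to pair mice. Same-slide arrays of different number gave 0.33, 0.32, 0.21 and 0.37, and arrays of different slides ran from -0.35 to 0.29. Values were centred within each genotype, so these correlations depend on each other. With the replicate block the number of genes called stayed 1 (Terf2ip, limma adjusted p = 0.0483), and 0 of the 10 genes passed. Each block held 1 array of each genotype, so the medians could not move. All 15 probes cleared background on each array, the second Agrn probe dimly, and 0 spots were saturated.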
